A study of Mus musculus with 6 samples.

Results

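A list of 49 mouse genes of the mitotic spindle, the kinetochore and the condensed chromosome was followed through single-cell RNA sequencing of fetal testicular germ cells. The genes were chosen by symbol, and 49 of 49 were rows of the deposited table of 27998 genes. In 3 samples the genotype is given as Rb1 cKO, in which the retinoblastoma gene Rb1 was knocked out conditionally, and these were set against 3 control samples whose genotype label is wildtype. All 6 samples were male germ cells of embryonic day 14.5 on a mixed C57/B6 and 129 background, sorted for the red fluorescent protein tdTomato. The labels name neither the Cre driver nor the deleted exon, and they do not say whether each sample came from 1 animal or from a pool of testes. The libraries were 10x Genomics v2, which reads the 3' end of a transcript and counts each molecule once by a unique molecular identifier (UMI). The authors' 5 clusters carry numbers 0 to 4 and no cell type names, and the numbers are kept here.

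Chromosomes are segregated by a bipolar array of microtubules, the spindle, which binds each chromosome at the kinetochore built on its centromere. Condensin and topoisomerase II compact the chromosomes beforehand, the spindle checkpoint delays anaphase until every kinetochore is attached, and the midzone between the separating chromosomes directs cytokinesis. Transcripts of many of these genes are low in G1 and peak in G2 and mitosis, under promoter elements called CHR and CCAAT boxes that are bound by the DREAM and B-MYB complexes and by NF-Y. DREAM contains the Rb1 relatives p107 or p130, whereas the retinoblastoma protein itself is best known for binding E2F factors. Male germ cells of the mouse leave the mitotic cycle around this stage and stay arrested until after birth.

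The cKO samples held 480, 945 and 1164 cells with 7807571, 12598312 and 16810763 UMIs, and the controls held 781, 430 and 1354 cells with 10943183, 7598511 and 17323152 UMIs. Rb1 itself stood at 3.35, 3.73 and 3.64 CPM (UMIs per 1000000 UMIs of the library, scaled with TMM factors) in cKO samples and at 10.3, 8.65 and 7.13 CPM in controls, although its 3' tags need not lie in the deleted segment. Summed markers of germ cells held 8502 to 9552 CPM per sample. The sums were 5.57 to 25.4 CPM for Sertoli cells, 0.635 to 1.45 CPM for Leydig cells with 2 of 5 genes at 0 UMIs, and 2.86 to 9.87 CPM for interstitial stroma. They were 51.5 to 74.2 CPM for endothelial cells, mostly Pecam1, which fetal germ cells also express, 0 to 3.41 CPM for macrophages and 6.02 to 32.8 CPM for erythroid cells. Cluster 3 of control 3 stood apart, with 25 cells, 1.85% of that sample against 7.04% to 9.42% in the other samples, and a median of 4654 UMIs per cell against 12699 to 15999. Among the barcodes, 9 sequences occurred in more than 1 sample.

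The members were most abundant in clusters 1 and 2 and least in cluster 0. Cluster 0 held 2210 cells, cluster 1 1863, cluster 2 640, cluster 3 343 and cluster 4 98. Because the clusters were built from the same counts, levels across clusters are a description with no test. Ratios between clusters are log2 ratios of CPM + 1 taken within each sample and then averaged, and CPM values in this account of the clusters are those of summed counts without TMM factors. In cluster 1 relative to cluster 0, 32 of 49 members were higher in 6 of 6 samples and 5 were lower in 6 of 6. Among the 4932 genes whose mean level reached 20 CPM, 21.2% were higher and 19.1% were lower in this way, and of the 45 members at that level 30 were higher and 5 lower. The median log2 ratio was 0.48 over the members and 0.01 over the 4932 genes.

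**Figure D1:**
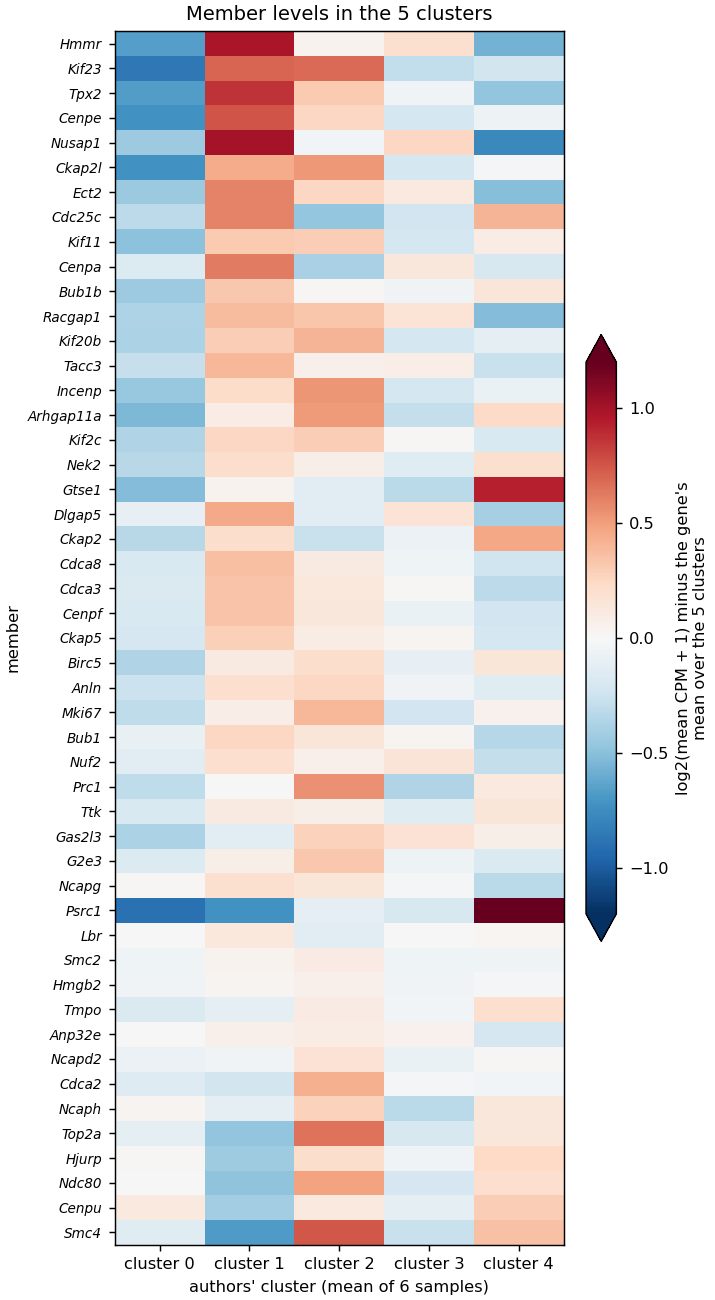
Level of each of the 49 members in the 5 clusters. Colour gives log2(mean CPM + 1) over the 6 samples minus the gene's own mean over the clusters, and rows are sorted by the ratio of cluster 1 to cluster 0. Spindle and cytokinesis genes at the top are high in cluster 1, and some, such as Kif23 and Ckap2l, also in cluster 2. Smc4 and Top2a at the bottom are high in cluster 2. Psrc1 and Gtse1 are high in cluster 4, where Psrc1 lies beyond the end of the colour scale.

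Genes of the spindle microtubules made up much of the top of this order. Hmmr, a microtubule-binding receptor of hyaluronan that acts at spindle poles, had 145.2, 118.9 and 124.4 CPM in the cKO samples and 117.4, 118.5 and 117.5 CPM in the controls within cluster 1. Within cluster 0 it had 44.0, 35.8 and 36.8 CPM in the cKO samples and 40.3, 35.6 and 41.4 CPM in the controls. Every sample was thus higher in cluster 1 than any sample in cluster 0, and the mean log2 ratio of 1.64 gave Hmmr rank 3 among the 4932 genes. Tpx2, which activates the Aurora A kinase at the spindle, averaged 137.7 ± 12.8 CPM in cluster 1 and 46.7 ± 5.21 CPM in cluster 0 (SD, n = 6 samples each). Nusap1, which bundles spindle microtubules, averaged 149.8 ± 33.1 CPM in cluster 1 and 55.0 ± 11.6 CPM in cluster 0. Ckap2l, a spindle protein of neural progenitors in the mouse, averaged 29.0 ± 3.52 CPM in cluster 1 and 12.3 ± 0.670 CPM in cluster 0. Of the 12 members of this group 10 were higher in cluster 1 in 6 of 6 samples, with mean log2 ratios between 0.48 for Ckap5 and 1.64 for Hmmr. The exceptions were Dlgap5, higher in 5 of 6, and Psrc1, higher in 3 of 6.

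Midzone and cytokinesis genes followed the same order, with 7 of 8 higher in cluster 1 than in cluster 0 in 6 of 6 samples. Their sum was nevertheless highest in cluster 2, averaging 463.5 CPM there, 408.3 CPM in cluster 1 and 259.8 CPM in cluster 0. Kif23, a kinesin of the centralspindlin complex, averaged 33.4 ± 2.58 CPM in cluster 1 and 10.7 ± 1.77 CPM in cluster 0, with a mean log2 ratio of 1.56. Its partner Racgap1 had a ratio of 0.75, and Ect2, the exchange factor that activates RhoA at the cleavage furrow, one of 1.04. Prc1, which bundles antiparallel microtubules, had the smallest ratio of the 7, at 0.32. Gas2l3 was higher in 4 of 6 samples at 4.99 to 8.44 CPM per cluster. All 4 checkpoint and centrosome kinases were higher in cluster 1 in 6 of 6 samples, between 0.28 for Ttk and 0.76 for Bub1b. So were the 3 members from the chromosomal passenger complex, Birc5, Cdca8 and Incenp, between 0.47 and 0.67.

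The kinetochore genes split between clusters. Cenpe, the kinesin that carries chromosomes along microtubules towards the spindle equator, averaged 113.6 ± 15.01 CPM in cluster 1 and 40.0 ± 5.25 CPM in cluster 0. Cenpa, the centromeric histone, averaged 350.0 ± 30.9 CPM in cluster 1 and 202.2 ± 33.6 CPM in cluster 0. Cenpf and Nuf2 were also higher in cluster 1 in 6 of 6 samples, with log2 ratios of 0.52 and 0.33. Ndc80, the microtubule-binding partner of Nuf2 in the NDC80 complex, ran the other way, with 26.7 ± 4.35 CPM in cluster 1 and 37.7 ± 4.05 CPM in cluster 0. Cenpu, of the inner kinetochore, had a log2 ratio of -0.54 and Hjurp, the chaperone that loads CENP-A, one of -0.44, and both were lower in 6 of 6 samples. Ndc80 and Nuf2, the NDC80 complex subunits on the list, therefore lay in opposite directions in every sample. With each cell thinned to 10000 UMIs, however, Nuf2 was higher in 5 of 6.

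Condensin and chromosome structure genes were not a cluster 1 group. Smc4, the ATPase subunit shared by both condensins, had 398.2, 400.4 and 356.2 CPM in the cKO samples and 346.1, 315.7 and 285.6 CPM in the controls within cluster 2. In cluster 1 it had 142.1, 140.6 and 129.7 CPM in the cKO samples and 108.5, 144.1 and 110.4 CPM in the controls, the lowest of the 5 clusters in each sample. Top2a, topoisomerase II alpha, averaged 298.8 ± 46.8 CPM in cluster 1, 653.5 ± 85.9 CPM in cluster 2 and 383.7 ± 54.2 CPM in cluster 0. Of the 9 genes of this group, Mki67, a chromosome surfactant, was higher in cluster 1 than in cluster 0 in 6 of 6 samples at a log2 ratio of 0.38, and Smc4 and Top2a were lower in 6 of 6. The non-SMC subunits of condensin I stood near their cluster 0 levels, with log2 ratios of 0.17 for Ncapg, 0.04 for Ncapd2 and -0.19 for Ncaph. Smc2 had 0.09, Hmgb2, a DNA-bending protein of chromatin, 0.08, and Cdca2, which recruits protein phosphatase 1 to chromatin, -0.06. The nuclear envelope genes Lbr and Tmpo, at 0.13 and 0.06, were also close to level. Among the remaining regulators, Cdc25c, the phosphatase that activates CDK1, had 0.92, Cdca3 0.53 and G2e3 0.23, each higher in 6 of 6 samples, and Anp32e, an H2A.Z chaperone, had 0.06.

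**Figure D2:**
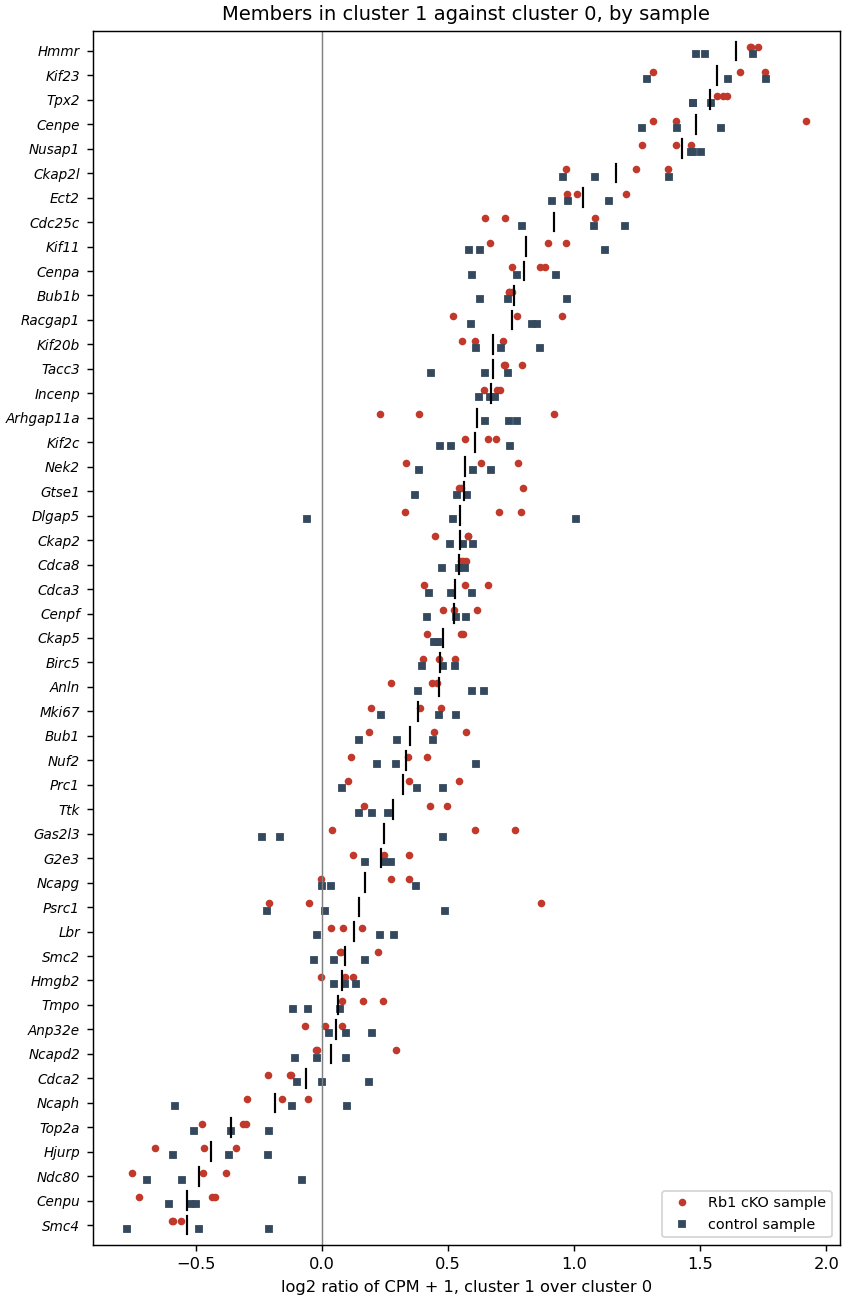
Log2 ratio of CPM + 1 in cluster 1 over cluster 0 for each member, with 1 point per sample (circles, Rb1 cKO; squares, control) and a black tick at the mean of 6. The ratios run from 1.64 for Hmmr to -0.54 for Smc4, and points of both genotypes lie on the same side of 0 for 37 of the 49 members.

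Cluster 2 differed from cluster 0 without the split. There 29 of 49 members were higher in 6 of 6 samples and 0 were lower, against 13.3% of the 4932 genes higher and 13.6% lower. With thinned cells these numbers were 32 and 1, against 10.5% and 10.4% of the 4932 genes. Between clusters 1 and 2, 14 members were higher in cluster 1 and 11 in cluster 2 in 6 of 6 samples, against 18.4% and 15.6% of the 4932 genes. Relative to cluster 3, 21 members were higher and 3 lower in cluster 1, against 8.31% and 6.57% of the 4932 genes, and relative to cluster 4, 18 were higher and 4 lower, against 9.55% and 7.16%. Cluster 3 had 14 members higher and 1 lower than cluster 0, against 4.56% and 4.42%, and cluster 4 had 9 higher and 1 lower, against 4.44% and 5.27%. With thinned cells clusters 3 and 4 each had 7 members higher and 1 lower than cluster 0. Of the 4932 genes, 3.33% were higher and 3.67% lower in this way in cluster 3, and 3.30% and 4.50% in cluster 4. The 8 members highest in cluster 1 of all 5 clusters in every sample were Hmmr, Tpx2, Cenpe, Nusap1, Cenpa, Tacc3, Cdca8 and Cenpf. Incenp, Prc1, Top2a and Smc4 were highest in cluster 2 in every sample. The share of all genes highest in a given cluster in every sample was not computed, so these lists have no background beside them. In cluster 4, Gtse1 was highest in every sample, with 80.8, 88.0 and 62.9 CPM in the cKO samples and 104.4, 145.0 and 94.0 CPM in the controls, against 30.1 to 40.2 CPM in cluster 0. Psrc1 had 8.08, 19.6 and 17.5 CPM in the cKO samples and 20.9, 50.4 and 51.5 CPM in the controls in cluster 4, from 38 UMIs in all, and averaged 3.12 ± 1.15 CPM in cluster 0. Both are induced by p53 in mouse cells.

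The other mitotic lists were measured for comparison. Of 16 mitotic kinases, cyclins and anaphase genes at the 20 CPM level, 9 were higher and 1 lower in cluster 1 than in cluster 0 in 6 of 6 samples, and of 13 other spindle, motor and cytokinesis genes 7 were higher and 2 lower. Of 25 other kinetochore and checkpoint genes 7 were higher and 6 lower, and of 14 condensin II and other chromosome structure genes 4 were higher and 6 lower. Of 24 S phase genes, 0 were higher and 22 lower, with a median log2 ratio of -0.62. Among the genes with the largest ratio of cluster 1 to cluster 0, members were 7 of the top 20, 15 of the top 50 and 23 of the top 100.

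Letters of the CHR and CCAAT type were then looked for in the promoters, since these elements belong to the textbook account of such genes. RefSeq promoter windows, from 250 bases before to 50 bases after the annotated start on GRCm38.p6, were found for 43 of the 49 members. Cdc25c, Cdca2, Dlgap5, Incenp, Smc4 and Tpx2 had no entry. TTTGAA, the CHR letters, occurred on either strand in 30 of the 43 member windows, or 69.8%, in 20.2% of the windows of all 27025 genes and in 13.6% of those of the 8782 matched genes tested over all cells. Within 50 bases of the start on either side it occurred in 24 members, or 55.8%, in 5.72% of all genes and in 3.67% of the tested genes. CCAAT, read on either strand, occurred in 33 members, or 76.7%, in 41.1% of all genes and in 43.9% of the tested genes. The variant TTCGAA occurred in 5 members, or 11.6%, against 1.80% of all genes and 2.58% of the tested genes. The E2F-type letters searched were TTTGGCGC and TTTCCCGC, with TTTGCCGC or TTTCGCGC as variants, and any of them occurred in 4 members, or 9.30%, against 2.60% of all genes and 5.03% of the tested genes. A match is a description of letters and not a measured site. TTTGAA was found in 20 of the 29 members with a window that were higher in cluster 1 in 6 of 6 samples and in 3 of the 4 that were lower.

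Windows of 30 bases show TTTGAA, in capitals, with its flanks, for members at both ends of the cluster 1 order and for the most abundant member of 5 of the roles. Only members with a match are shown. Cenpe and Nusap1 at the high end, Ncaph and Cenpu at the low end, and Bub1 among the most abundant had a promoter window without TTTGAA. Ckap2l, Top2a, Ndc80 and Anp32e are written on the strand opposite to the gene, where the letters lie. The first base of the match lies between 30 bases before and 30 bases after the RefSeq start in every one of the 11 except Anp32e, at position -195. Tmpo has more than 1 RefSeq start. Its TTTGAA match belongs to a start inside the annotated gene (chr10:91147571-91181315, - strand), and another start holds CCAAT without TTTGAA.
Hmmr (chr11:40733412-40733441, - strand): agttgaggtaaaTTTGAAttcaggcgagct
Kif23 (chr9:61946780-61946809, - strand): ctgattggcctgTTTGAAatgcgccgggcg
Ckap2l (chr2:129297225-129297254, + strand): ggcttccgcgacTTTGAAattcgccaataa
Top2a (chr11:99024195-99024224, + strand): tccctagtttcaTTTGAAcctttatctagc
Hjurp (chr1:88277543-88277572, - strand): tgcgtaaatactTTTGAAagaccctattag
Ndc80 (chr17:71526811-71526840, + strand): aacccaaggcggTTTGAAttttaaagtttc
Cenpf (chr1:189688067-189688096, - strand): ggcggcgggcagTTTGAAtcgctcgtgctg
Hmgb2 (chr8:57511801-57511830, + strand): ggactctccgggTTTGAAtaatcctccaca
Prc1 (chr7:80294434-80294463, + strand): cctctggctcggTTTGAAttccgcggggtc
Tmpo (chr10:91170561-91170590, - strand): gatggagggcttTTTGAAccgttttgtttc
Anp32e (chr3:95929050-95929079, - strand): cggagaaatgatTTTGAAtcccagtcgccc

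The stretch of 120 bases upstream of the RefSeq start is shown for Hmmr, with the largest ratio of cluster 1 to cluster 0, and for Top2a, among the smallest. Capitals mark the CCAAT letters, read on either strand, and likewise those of the CHR type and its variant.
Hmmr (chr11:40733438-40733557, - strand): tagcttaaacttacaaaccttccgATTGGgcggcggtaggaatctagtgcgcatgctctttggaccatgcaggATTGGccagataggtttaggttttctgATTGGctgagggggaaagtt
Top2a (chr11:99024190-99024309, - strand): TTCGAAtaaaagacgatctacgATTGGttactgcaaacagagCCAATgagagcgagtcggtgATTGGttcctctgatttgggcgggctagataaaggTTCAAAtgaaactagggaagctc
Both stretches hold 3 CCAAT matches. The TTTGAA match of Hmmr lies 9 bases after the start and so outside the stretch printed, while that of Top2a begins at position -23. These stretches are not typical of the ends of the order. Those of Nusap1, Ncaph, Hjurp and Ndc80 hold none of the marked letters, and those of Kif23, Cenpe, Ckap2l and Cenpu hold fewer CCAAT matches.

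The comparison of genotypes over all cells asks whether loss of Rb1 changed the level of these transcripts. No member passed the threshold. The test was edgeR's quasi-likelihood test on UMI counts summed per sample, 11540 genes passed its low-count filter, all 49 members among them, and 0 genes in all had a Benjamini-Hochberg adjusted p under 0.05, a percent called of 0. DESeq2 called 1 gene higher in cKO samples, 2810417H13Rik, and 3 lower, Nme2, Rb1 and Rnaset2b, named after their values were seen, and 0 members. The members' edgeR adjusted p values were at least 0.994. Rb1 itself, with a log2 fold change of -1.27 ± 0.19 and no overlap between the groups, had an edgeR adjusted p of 0.415. The main test thus did not call the knocked-out gene, and a member without a call is not shown to be unchanged. At an unadjusted p under 0.05, 3 members were higher and 1 was lower in cKO samples, against 1.78% and 1.73% of all genes tested. Members whose cKO and control samples did not overlap numbered 5 on the higher side, Smc4, Cenpf, Ndc80, Ncapg and Smc2, and 1 on the lower side, Bub1b, against 4.71% and 4.23% of all genes. The log2 fold change was positive for 30 of 49 members and for 50.1% of all genes, and its median was 0.05 over members and 0.00 over all genes. The members' median ran from 0.02 without cKO 1 to 0.07 without control 2, and was 0.03 without cKO 3 and without control 1. In counts summed over cells, more cells with a transcript and more of it per cell cannot be told apart.

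Of the condensin and chromosome structure genes 7 of 9 had log2 fold changes above 0, with a median of 0.15. Smc4 had 205.1, 216.0 and 202.3 CPM in cKO samples and 174.3, 173.9 and 165.3 CPM in controls, here with TMM factors. The groups did not overlap, and the log2 fold change was 0.28 ± 0.07 (SE), the smallest p of the members. Smc2, its ATPase partner, had 343.2, 357.2 and 318.7 CPM in cKO samples and 294.4, 317.5 and 309.1 CPM in controls, a log2 fold change of 0.15 ± 0.07. Ncapg had 70.7, 77.8 and 71.3 CPM in cKO samples and 70.4, 63.5 and 57.5 CPM in controls, with 0.20 ± 0.09, which was 0.13 without control 3. The remaining subunits of condensin I overlapped between the groups, with 0.16 ± 0.26 for Ncaph and -0.05 ± 0.12 for Ncapd2. Top2a had 397.1, 366.5 and 495.8 CPM in cKO samples and 329.9, 344.8 and 409.3 CPM in controls. Both groups held 1 high sample, replicate 3, and the groups overlapped, with a log2 fold change of 0.22 ± 0.13 that was 0.08 without cKO 3. Hmgb2, which held 31.4% to 34.1% of the member UMIs, had 2320, 2178 and 2526 CPM in cKO samples and 2076, 2178 and 2402 CPM in controls, with 0.08 ± 0.08, which was 0.02 without cKO 3, 0.03 without control 1 and 0.14 without control 3. Cdca2 stood at 0.11 and Mki67 at -0.11.

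Of the 7 kinetochore and centromere genes 6 were above 0 in log2 fold change, and the median was 0.18. Cenpf, a large protein of the outer kinetochore that accumulates in G2, had 642.2, 636.7 and 616.0 CPM in cKO samples and 566.1, 552.4 and 546.6 CPM in controls. The lowest cKO sample was above the highest control, and the log2 fold change was 0.19 ± 0.06. Ndc80 had 36.8, 39.6 and 38.6 CPM in cKO samples and 32.3, 33.8 and 32.5 CPM in controls, again without overlap, with 0.22 ± 0.08. Its partner Nuf2 had 44.5, 43.8 and 45.5 CPM in cKO samples and 39.9, 44.8 and 37.9 CPM in controls, with 0.13 ± 0.09 and control 2 inside the cKO range, and with 0.08 without control 3 and 0.20 without control 2. Cenpe had 82.3, 80.4 and 69.6 CPM in cKO samples and 72.5, 66.1 and 66.8 CPM in controls, with 0.18 ± 0.09. Cenpu had 28.1, 31.7 and 25.3 CPM in cKO samples and 24.1, 24.5 and 25.3 CPM in controls, with 0.20 ± 0.11, which was 0.11 without cKO 2, and Hjurp had 0.06 ± 0.10. Cenpa was the exception, at 229.8, 225.1 and 243.8 CPM in cKO samples and 238.0, 267.4 and 321.9 CPM in controls. Its log2 fold change of -0.24 ± 0.11 rested in part on control 3, without which it was -0.12.

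**Figure D3:**
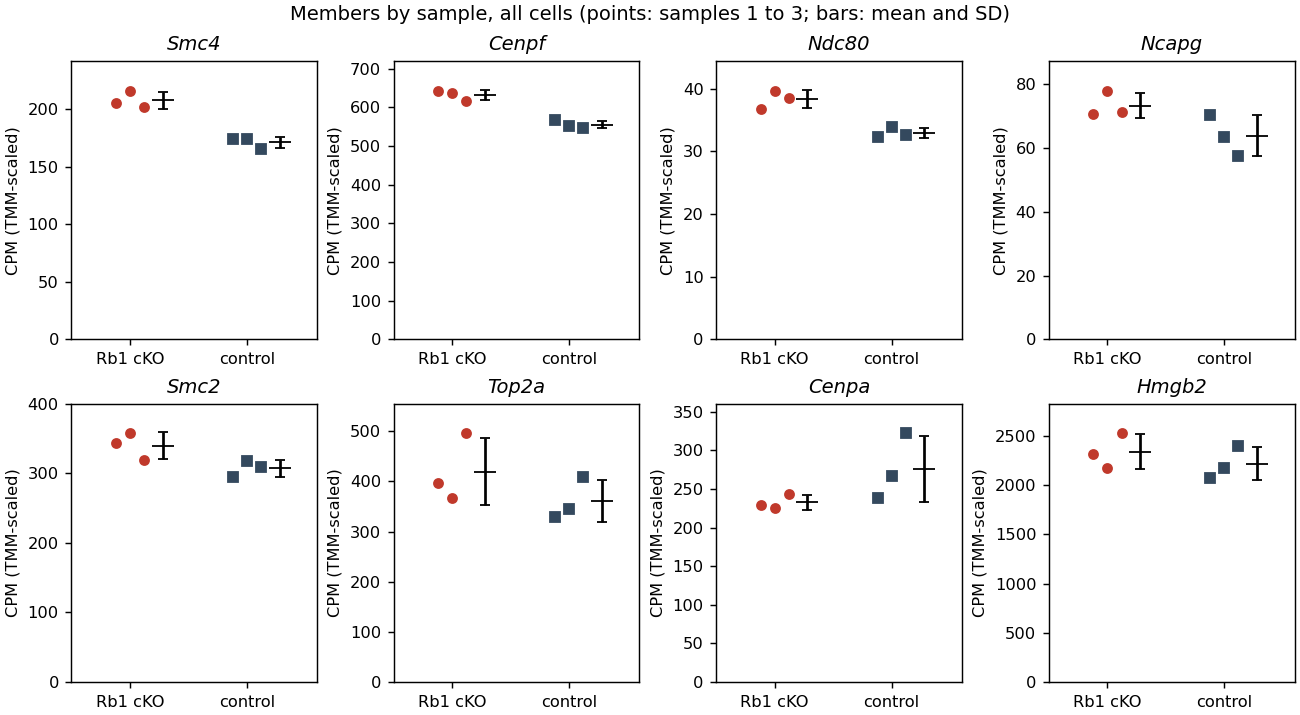
CPM scaled with TMM factors in each sample over all cells for 8 members, Rb1 cKO samples (circles) left of controls (squares), with the mean and SD of each group (n = 3) as bars. The groups do not overlap for Smc4, Cenpf, Ndc80, Ncapg and Smc2, by less than 2 CPM in the case of Ncapg and Smc2, and they overlap for Top2a, Cenpa and Hmgb2.

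The other role groups lay around 0. Among spindle microtubule proteins and motors 6 of 12 were positive, with a median of 0.01. Nusap1 had 106.2, 72.1 and 113.8 CPM in cKO samples and 70.1, 81.1 and 115.3 CPM in controls, so that samples within each group differed by more than the group means, and the log2 fold change of 0.13 ± 0.25 was -0.02 without control 1, near 0 without cKO 3 and 0.37 without control 3. Hmmr and Tpx2, 2 of the genes furthest apart between clusters, had 0.04 ± 0.09 and -0.03 ± 0.09. Among midzone and cytokinesis genes 3 of 8 were positive, with a median of -0.01. Prc1 had 0.08 ± 0.08, which was 0.03 without cKO 3, and Anln, the scaffold protein of the contractile ring, had 30.5, 31.9 and 33.2 CPM in cKO samples and 32.1, 36.4 and 41.1 CPM in controls, with -0.20 ± 0.11, and with -0.10 without control 3. Among the checkpoint and centrosome kinases 2 of 4 were positive. Bub1 had 88.2, 93.4 and 87.7 CPM in cKO samples and 88.4, 97.6 and 68.1 CPM in controls. Control 3 was the low sample, and the log2 fold change of 0.09 ± 0.12 became -0.0496 without it. Bub1b, the checkpoint protein BUBR1, had 46.3, 49.1 and 48.4 CPM in cKO samples and 51.4, 54.5 and 49.4 CPM in controls, with -0.11 ± 0.08. Nek2, a kinase of the centrosome, had 26.7, 28.4 and 34.0 CPM in cKO samples and 27.9, 41.6 and 35.4 CPM in controls, with -0.23 ± 0.15, and with -0.09 without control 2 and -0.36 without control 1. Of the chromosomal passenger genes Incenp was positive at 0.08, and Cdca8 and Birc5 stood at -0.02 and -0.08. Tmpo had 0.05, or 0.02 without cKO 2, and Lbr had 0.03, and of the remaining regulators G2e3 had 0.15, Cdc25c 0.06, Anp32e 0.05, near 0 without cKO 2, and Cdca3 -0.07.

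**Figure D4:**
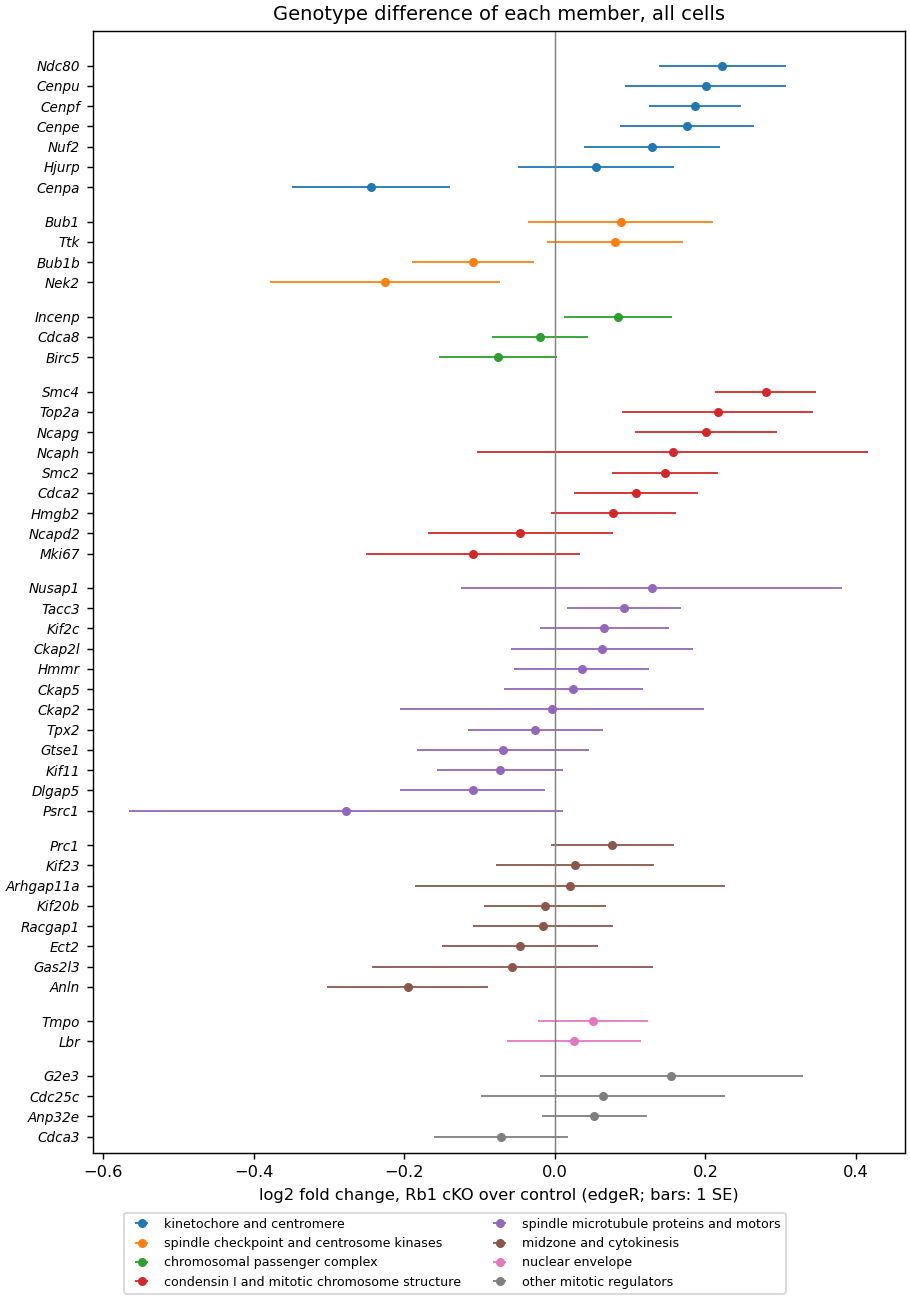
Log2 fold change of each member over all cells, Rb1 cKO over control, from edgeR, with bars of 1 SE and colours by role. The values run from 0.28 for Smc4 to -0.28 for Psrc1, kinetochore and condensin genes lie mostly right of 0, and no member passed the adjusted threshold.

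Summed over the 49 members, cKO samples held 7404, 6940 and 7243 CPM of summed counts and controls 6518, 6935 and 6907 CPM. The mean was 6.02% higher in cKO samples, and the lowest cKO sample exceeded the highest control by under 5 CPM. The groups overlapped once the sums were scaled with TMM factors, control 3 then lying above cKO 2. They also overlapped with the mean over cells of each cell's CPM. Leaving out 1 sample at a time gave 3.97% to 7.91%, scaling with TMM factors 4.90%, and leaving out Hmgb2 5.72%. Kinetochore genes summed to 1148, 1112 and 1064 CPM in cKO samples and 1021, 1063 and 1034 CPM in controls, the lowest cKO sample exceeding the highest control by under 1 CPM. The share of cells in cluster 1, where most members were higher, was lower in cKO samples, at 36.2%, 33.8% and 33.5%, than in controls, at 38.4%, 37.7% and 38.3%, and the share in cluster 2, where 29 members were higher than in cluster 0, was 13.5%, 14.3% and 12.2% in cKO samples and 9.60%, 10.5% and 13.1% in controls, with overlap. The part of these shares in the difference over all cells was not tested.

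Within clusters the genotype comparison was repeated on counts summed per sample and cluster. All 49 members passed the low-count filter in clusters 0, 1 and 2, 46 in cluster 3 and 28 in cluster 4, and 0 genes were called in any cluster, a percent called of 0 in each. In cluster 0, 3 members were higher and 0 lower at an unadjusted p under 0.05, against 1.96% and 1.92% of 10091 genes tested. These were Smc4 with a log2 fold change of 0.27 ± 0.09, Cenpf with 0.20 ± 0.07 and Ndc80 with 0.25 ± 0.10. In cluster 1, 2 members were higher and 0 lower, against 1.53% and 1.84% of 9889 genes. Cenpf had 765.9, 772.9 and 780.1 CPM in cKO samples and 677.4, 646.9 and 658.4 CPM in controls there, with TMM factors, and a log2 fold change of 0.23 ± 0.07. Cenpe had 0.22 ± 0.10. In cluster 2, Smc4 was higher with 0.27 ± 0.10 and Cenpa lower with -0.40 ± 0.16, against 1.89% and 2.15% of 7895 genes. In cluster 3 there was 0 on either side, against 1.68% and 1.68% of 5996 genes, and the 25 shallow cells of control 3 stand behind 1 of the 3 controls. Members without overlap between the genotypes numbered 5 higher and 0 lower in cluster 0 (4.88% and 4.79% of all genes), 5 and 1 in cluster 1 (4.65% and 4.59%), 3 and 0 in cluster 2 (4.47% and 4.86%), 3 and 3 in cluster 3 (5.07% and 4.49%) and 0 and 3 in cluster 4 (4.36% and 4.84%). In cluster 4, with as few as 10 cells in a sample, Cdca2 was lower with -0.89 ± 0.33 on 5 to 24 UMIs per sample, against 1.38% of 2685 genes higher and 2.57% lower.

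The smallest adjusted p of a member in any cluster was above 0.999 by edgeR. Positive log2 fold changes numbered 30 of 49 in cluster 0, 34 of 49 in cluster 1, 25 of 49 in cluster 2, 29 of 46 in cluster 3 and 11 of 28 in cluster 4, where 49.7%, 49.7%, 48.5%, 49.6% and 49.9% of all genes tested were positive. The medians were 0.03, 0.06, 0.01, 0.06 and -0.07 in that order. With 1 sample left out the cluster 0 median came as low as 0.01, without cKO 3 or control 1, and the cluster 1 median ran from 0.01 without control 1 to 0.10 without control 2. The cluster 2 median was -0.03 without cKO 3, -0.02 without control 3 and 0.04 without control 1. The cluster 3 median ran from 0.02 without control 1 or cKO 1 to 0.10 without cKO 2, and the cluster 4 median from -0.11 without cKO 3 to near 0 without control 2, and was 0.02 with no low-count filter. Smc4 was positive in each of the 5 clusters, with 0.17 ± 0.11, 0.23 ± 0.14 and 0.10 ± 0.19 in clusters 1, 3 and 4. Cenpf was positive in each as well, with 0.09, 0.17 and 0.16 in clusters 2, 3 and 4. Positive kinetochore and centromere genes numbered 6 of 7, 6 of 7, 5 of 7, 3 of 7 and 2 of 4 in clusters 0 to 4. Positive condensin and chromosome structure genes numbered 7 of 9, 8 of 9, 7 of 9, 7 of 9 and 3 of 8. The cluster 1 sum of the 49 members was 7988, 7700 and 7985 CPM in cKO samples and 7053, 7687 and 7499 CPM in controls, 6.45% higher in cKO samples. The groups overlapped once cells were thinned to 10000 UMIs or the sums were scaled with TMM factors.

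Whether the genotype difference itself differed between clusters 1 and 0 was tested with an interaction term, with the sample as a block. Of 10413 genes tested 2 were called, a percent called of 0.0192, and 0 of them were members. The 2 genes, named after their values were seen, were Retn and Zfp607, and neither was called without control 3 or without cKO 3. At an unadjusted p under 0.05 there were 3 members, Tmpo with a difference of 0.24 ± 0.10 in log2 fold change, Tacc3 with 0.18 ± 0.09 and Cenpa with 0.12 ± 0.06, against 5.03% of all genes tested. The median difference was 0.03 over the members and 0.01 over all genes.

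In the other lists no gene passed the threshold over all cells either. Other kinetochore, centromere and checkpoint genes had 26 of 33 log2 fold changes above 0, the median being 0.08, and their most abundant members were Spc25 at 0.12 ± 0.07 and Spc24 at 0.07 ± 0.08, the globular partners of Ndc80 and Nuf2. Condensin II and other chromosome structure genes had 12 of 16 positive with a median of 0.05, Hmgb1 standing at 0.07 ± 0.06 and Banf1 at 0.01 ± 0.07. Mitotic kinases, cyclins and anaphase genes had 11 of 20 with a median of 0.04, and their most abundant genes, the ubiquitin-conjugating enzymes of the anaphase-promoting complex Ube2s and Ube2c, had -0.06 ± 0.07 and -0.07 ± 0.07. Other spindle, motor and cytokinesis genes had 13 of 25 with a median of 0.04, with 0.04 ± 0.08 for Tuba1b and 0.34 ± 0.19 for Stmn1. S phase genes, the conventional targets of E2F, had 25 of 25 positive with a median of 0.16, 7 of them at an unadjusted p under 0.05 and all 7 higher in cKO samples. Of all genes tested, 50.1% were positive and 1.78% were higher at such an edgeR p. Within clusters 0 to 4 the positive S phase genes numbered 23 of 25, 24 of 25, 14 of 25, 20 of 25 and 14 of 20. In cluster 2 their median was 0.01, and 0 of them had an unadjusted p under 0.05. Slbp, the histone mRNA binding protein, had 0.28 ± 0.06 and Hells, a chromatin remodeler, 0.16 ± 0.09. The difference between lists was not tested.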

How the data were processed

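The authors deposited 1 table of raw UMI counts per gene and cell barcode (27998 genes, 5160 barcodes) and 1 table of each barcode's sample and cluster; per the submitters' processing notes Cell Ranger, Seurat 3.0 and the build mm10 were used, and parameters were not given in the sources used here. The cluster labels are the authors' own numbers at resolution 0.2. Barcodes needed 500 genes or more and less than 10% mitochondrial UMIs; 5154 passed, and the 6 removed were all of cluster 3. Doublets were not called, and the labels do not say whether any were removed before deposit.

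Counts were summed per sample, and per sample and cluster, and tested with edgeR 4.0.16 in R 4.3.3 (glmQLFit and glmQLFTest, robust, TMM factors, filterByExpr, two-sided). P-values were adjusted by Benjamini-Hochberg over all genes tested, with a threshold of 0.05, and the SE is the log2 fold change over the root of F. DESeq2 1.42.0 and other settings were alternatives. The edgeR fit over all cells was tested on simulated counts, with changes larger than those of any member over all cells. The other steps were not tested in this way. Nothing in the labels says that replicates came from separate animals, so the p-values reflect only how these samples vary, and that variation may be technical. Total UMIs per sample ran from 7598511 to 17323152. Members, lists and tests were chosen with earlier results of these data known. Named in full are the 12 members of smallest genotype p, the member of highest mean CPM in each role, the 6 largest and 6 smallest ratios of cluster 1 to cluster 0, and the 2 most abundant genes of other lists; some further members are named for completeness. Promoter letters come from RefSeq windows on GRCm38.p6, and 5 members have more than 1 start. Some RefSeq starts, among them those of Hmmr, Kif23, Hjurp and Hmgb2, differ from those of the GENCODE annotation. 1 promoter window is not reported here.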

Additional observations from a re-analysis of the deposited data

How the results depend on the processing

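No member passed the threshold under any alternative run, over all cells, within clusters or in the interaction. Over all cells the positive members numbered 30 to 33 under the 8 settings that kept all replicates and 25 to 32 when 1 sample was left out. Smc4 stayed between 0.25 and 0.32, Cenpf between 0.17 and 0.20, Ndc80 between 0.20 and 0.30 and Cenpa between -0.34 and -0.12 over 13 alternatives each, with edgeR or DESeq2 adjusted p values of 0.533 or more. Top2a ran between 0.08 and 0.32, Nek2 between -0.36 and -0.09, Anln between -0.28 and -0.10, Cenpu between 0.11 and 0.28 and Hmgb2 between 0.02 and 0.14, and Prc1, Tmpo and Anp32e came as low as 0.03, 0.02 and 0.00. Bub1 was -0.0496 without control 3, and Nusap1 and Cdca8 crossed 0 in 2 and 1 alternatives.

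Genes called over all cells were 1 higher and 3 lower with DESeq2, 2 and 4 with no low-count filter, and 0 to 1 and 0 to 3 with 1 sample left out, the highest of these without control 3. No low-count filter gave 7 higher and 8 lower genes in cluster 0, 1 and 7 in cluster 1, 1 and 2 in cluster 2 and 3 and 14 in cluster 3. Without control 3, clusters 0 to 3 had 1 higher and 1 lower gene each and cluster 4 had 0 and 1; without control 1, cluster 3 had 3 lower. Leaving out 1 sample thus gave 0 to 1 higher and 0 to 3 lower in any cluster. Positive members in cluster 4 were 26 with no filter, as more members were tested, and 7 to 16 with 1 sample left out, 7 without cKO 3. Interaction calls were 4 with no filter, 4 without cKO 1, 6 without control 1, 1 without control 3, and 1 to 6 over all samples left out; Retn and Zfp607 were not among those without control 3 or cKO 3. The cause was not tested. None of the called genes was a member. Some genes of the other lists were called in an alternative. Cdc20 had 0.36 in the interaction without control 1. With no low-count filter Stmn1 had 0.39 in cluster 0 and Uhrf1 had 0.71 in cluster 1. Dlk1, of the stroma markers, had -2.9 in cluster 3 without control 1.

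Whether replicate numbers pair the samples was left undecided. Same-numbered deviations from the group means correlated at -0.30, 0.36 and 0.16, and differently numbered ones between -0.35 and 0.25. With 3 samples per group the deviations constrain one another, so these values cannot decide it. With a replicate block 1 gene was higher in cluster 3, and 0 members were called in any fit. Depth limits cluster 4 most, where 28 members could be tested.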

Other observations

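Across cells, the correlation of a member with the sum of the other members was low. Cells with at least 10000 UMIs were thinned to that number, and each member was ranked against the sum of the others within each sample. The sum was of UMIs, so abundant members weighed most in it, and Hmgb2 alone held 31.4% to 34.1% of the member UMIs before thinning. A gene with few UMIs per cell can reach only a low correlation, so a low value does not show that a member varied independently. The median Spearman correlation was 0.14 over 45 members and 0.01 over 4887 other genes, and all these cells share libraries and a cell cycle, so this is a description. Cenpf had 0.34, Cenpe 0.31 and Tpx2 0.30, while the lowest member, Cenpu, had -0.03. Within cluster 0 the highest member reached 0.17, and within cluster 1 it reached 0.36.

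The genes outside the list that moved most with the summed UMIs of the members were Cdc20, the anaphase activator, at 0.44, Hspa8, a constitutive heat shock chaperone, at 0.39, and Ccnb1, cyclin B1, at 0.38. Plk1, Aurka and Ube2c each had 0.36. Hspa8 was the second of these in order, with 0.45, 0.41 and 0.41 in the cKO samples and 0.38, 0.36 and 0.33 in the controls.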
